A study of Homo sapiens with 6 samples.

Results

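The 10 genes that carry iron into the cell, store it, release it and sense it were followed in CAPAN-2 cells with and without SIRT4 overexpression. They are TFRC, STEAP3, SLC11A2, FTH1, FTL, NCOA4, HMOX1, SLC40A1, ACO1 and IREB2, taken by name from a table of 67140 Ensembl gene identifiers, and all 10 were found in it. They were chosen by their role in iron handling and selected on the log2 fold change between these same libraries, TFRC as a gene that rises and HMOX1 as a gene that falls. The values of these 10 genes are therefore given as a description, without p-values, and whether a gene passed the threshold of the fit over all genes is stated in the same way. CAPAN-2 is an established line of human pancreatic ductal adenocarcinoma. The groups were 3 libraries labelled as SIRT4 overexpression and 3 from control cells labelled as lacking it, all of the same line. SIRT4 is a mitochondrial member of the sirtuin family. No source used here gives the vector, the duration of overexpression or whether the cells came from 1 clone. Nothing in the labels says that replicates came from separate cultures, and the p-values may then reflect technical spread alone.

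Iron reaches most cells bound to transferrin, which the transferrin receptor (TFRC) carries into endosomes, where ferric iron is reduced by STEAP3 and moved to the cytosol by SLC11A2 (DMT1). Iron that is not used at once is held in ferritin, a shell of heavy (FTH1) and light (FTL) chains, and is returned when NCOA4 delivers ferritin to lysosomes. HMOX1 (heme oxygenase 1) frees iron from heme, and SLC40A1 (ferroportin) exports it. Iron regulatory proteins, encoded by ACO1 (IRP1) and IREB2 (IRP2), bind hairpins called iron-responsive elements. In the 3′ UTR of TFRC such binding is known to protect the mRNA from decay, and in the 5′ UTR of ferritin and ferroportin mRNAs it is known to block translation.

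The hairpins are shown because their place differs between TFRC (3′ UTR) and the ferritin genes (5′ UTR). The pattern searched was an unpaired C, 5 bases of stem, the loop CAGTGN and 5 bases that pair with the first 5, G-T pairs allowed, in the sense strand of GENCODE 29 protein-coding transcripts on GRCh38. It was found in 4 of the 10 genes, with 7 hairpins in all. Loops are in capitals, and the upper stem is the 5 bases on either side of the loop.
TFRC hairpin 1, 3′ UTR, chr3:196050978-196051007, minus strand: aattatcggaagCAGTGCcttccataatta
TFRC hairpin 2, 3′ UTR, chr3:196050574-196050603, minus strand: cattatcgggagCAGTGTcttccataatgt
TFRC hairpin 3, 3′ UTR, chr3:196050509-196050538, minus strand: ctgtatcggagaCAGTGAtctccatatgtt
TFRC hairpin 4, 3′ UTR, chr3:196050462-196050491, minus strand: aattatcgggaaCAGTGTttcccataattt
FTH1 hairpin, 5′ UTR, chr11:61967573-61967602, minus strand: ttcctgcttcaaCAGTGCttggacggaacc
FTL hairpin, 5′ UTR, chr19:48965335-48965364, plus strand: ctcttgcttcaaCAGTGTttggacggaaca
SLC40A1 hairpin, 5′ UTR, chr2:189580660-189580689, minus strand: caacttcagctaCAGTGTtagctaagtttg

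The FTH1 and FTL windows shared 26 of 30 bases, and pairs of the 4 TFRC windows shared 19 to 25. Against the ferritin windows, the TFRC windows shared 9 to 13 of 30 bases. In the longest TFRC transcript with the pattern, the loops began 947, 1351, 1416 and 1463 bases after the stop codon, inside a 3′ UTR of 2658 bases. The loops of FTL, FTH1 and SLC40A1 began at bases 47, 71 and 211 of their transcripts. The pattern was found in the 5′ UTR of 36 of 19043 genes (0.189%) and in the 3′ UTR of 132 of 19146 (0.689%), and TFRC was one of only 2 genes with 3 or more in the 3′ UTR. With Watson-Crick pairs alone, both ferritin hairpins were lost, and the pattern stayed in 2 of the members, SLC40A1 with 1 hairpin and TFRC with 3. HMOX1, STEAP3, ACO1, IREB2, NCOA4 and SLC11A2 had no match. This says only that the pattern, with its fully paired stem, is not in their annotated protein-coding transcripts. Hairpins of any other form were not searched for, so it does not show that these genes lack an iron-responsive element.

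**Figure D1:**
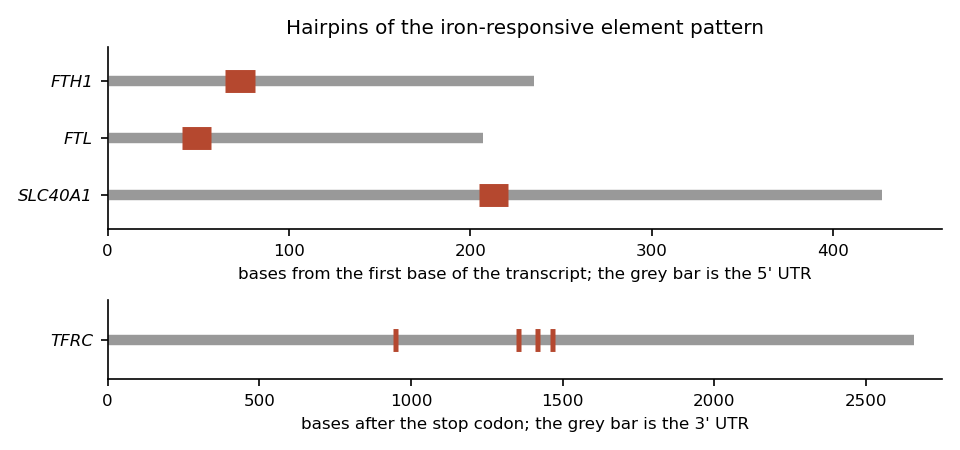
Position of the hairpins (red) in the longest transcript with the pattern, in bases from the transcript's first base within the 5′ UTR (grey) of FTH1, FTL and SLC40A1, and in bases after the stop codon within the 3′ UTR (grey) of TFRC. The single hairpins of FTH1 and FTL lie near the transcript start, and 3 of the 4 TFRC hairpins lie close together, with loops beginning at 1351, 1416 and 1463 bases.

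Library totals ran from 50945991 to 65156041 units of the deposited estimated counts. SIRT4 itself stood at 3.31, 2.80 and 3.60 CPM (units relative to library size, with library sizes scaled by the TMM method) in SIRT4 libraries and 2.47, 1.96 and 1.83 CPM in control libraries. Its log2 fold change was 0.63 (SE 0.21), which was not past the threshold (edgeR adjusted p = 0.0752; DESeq2 called it), and its groups did not overlap. The overexpression the labels state is thus not established by these counts, and whether the introduced SIRT4 RNA carries the counted exons was not tested. All 9 ductal and epithelial markers had a mean of at least 5 CPM over all libraries. KRT8, KRT18 and KRT19 were higher and SOX9 lower in SIRT4 libraries, and the other 5 did not pass. CLDN4 differed widely between replicates, at 24.9, 53.4 and 26.4 CPM in SIRT4 and 535, 1.84 and 31.1 CPM in control libraries. The summed level of 10 erythroid markers was 1.11 to 1.81 CPM in SIRT4 libraries and 1.34 to 1.61 CPM in control libraries, with HBB, HBG1 and HBG2 at 0. Of 8 macrophage and leukocyte markers, CD163 was at 0, PTPRC averaged 0.0173 and 0.0323 CPM in SIRT4 and control libraries, and the lysosomal gene CD68 made up most of a sum of 38.6 to 49.0 CPM in SIRT4 libraries and 62.9 to 91.9 CPM in control libraries. CD68 averaged 39.4 CPM in SIRT4 and 73.6 CPM in control libraries and was lower (log2 fold change -0.90, edgeR adjusted p = 0.0178), the direction of HMOX1 and the ferritins. The 6 nuclear-retained RNAs, listed as a sign of RNA quality, summed to 985 to 1183 CPM in SIRT4 libraries and 1388 to 1964 CPM in control libraries. Of these, MEG3 and OIP5-AS1 were lower, and NEAT1, with means of 288 CPM in SIRT4 and 617 CPM in control libraries and 1 control library at 935 CPM, did not pass. TUG1 (167 and 163 CPM in SIRT4 and control libraries), KCNQ1OT1 (23.5 and 23.6 CPM) and MALAT1 (223 and 248 CPM) did not pass either. Their part in the results below was not tested. These are bulk libraries, in which fewer cells of a type and less RNA per cell cannot be told apart.

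In SIRT4 libraries the mRNA of the uptake receptor was higher, and that of both ferritin chains and heme oxygenase was lower. The mRNA of the exporter was near its detection limit in both groups. Of the 10 genes, 3 were higher (TFRC, ACO1 and STEAP3), 3 were lower (HMOX1, FTH1 and FTL) and 4 did not pass the threshold (an adjusted p of 0.05 in edgeR's quasi-likelihood test over 20786 genes). Of all tested genes, 17.1% passed, 9.38% higher and 7.67% lower. The rule used this comparison, so nothing is read from the members' count. The groups did not overlap in CPM for 7 of the 10, against 37.6% of all tested genes. The median log2 fold change was 0.13 over the 10 genes and -0.02 over all tested genes.

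TFRC (ENSG00000072274, GRCh38 chromosome 3, 196027183 to 196082189, minus strand) had the largest change of the 10. It stood at 372, 378 and 399.8 CPM in SIRT4 libraries and 136, 140.3 and 136 CPM in control libraries. The lowest SIRT4 library was above the highest control library by more than the whole spread within either group. In deposited units these levels were 24173, 19493 and 23107 in SIRT4 libraries and 7947, 7232 and 7886 in control libraries. The means were 383 ± 14.6 CPM in SIRT4 and 137 ± 2.5 CPM in control libraries (SD, n = 3 each), a 2.79-fold difference (log2 fold change 1.48, SE 0.04). That log2 fold change lay above 98.9% of those of all tested genes.

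STEAP3 (ENSG00000115107, GRCh38 chromosome 2, 119223831 to 119265652, plus strand), the endosomal ferrireductase that acts on iron brought in by TFRC, stood at 61.4, 62.2 and 64.9 CPM in SIRT4 libraries and 43.3, 43.2 and 45.2 CPM in control libraries. All 3 SIRT4 values were above all 3 control values, with a log2 fold change of 0.52 (SE 0.06). An antisense gene, STEAP3-AS1, shares 500 exonic bases with it and averaged 0.498 and 0.432 CPM in SIRT4 and control libraries, far below STEAP3 in both. SLC11A2 (ENSG00000110911, GRCh38 chromosome 12, 50979401 to 51028566, minus strand), the next transporter in the same route, stood at 56.8, 61.1 and 55.2 CPM in SIRT4 libraries and 56.3, 52.7 and 49.2 CPM in control libraries. Those groups overlapped, and the log2 fold change of 0.13 (SE 0.07) was not past the threshold.

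The mRNA of both ferritin chains was lower in SIRT4 libraries. FTH1 (ENSG00000167996, GRCh38 chromosome 11, 61959718 to 61967660, minus strand), the chain with the ferroxidase site, stood at 565, 489 and 493 CPM in SIRT4 libraries and 918, 877 and 829 CPM in control libraries. FTL (ENSG00000087086, GRCh38 chromosome 19, 48965301 to 48966878, plus strand), the chain that helps form the mineral core, stood at 886, 904 and 964 CPM in SIRT4 libraries and 1319, 1319 and 1261 CPM in control libraries. Neither gene's groups overlapped. SIRT4 libraries held 59.0% of the control level for FTH1 (log2 fold change -0.76, SE 0.06) and 70.6% for FTL (log2 fold change -0.50, SE 0.04). Ferritin genes have many processed copies, and reads can be shared with them. The 25 rows named as FTH1 pseudogenes held 0.298% of the FTH1 and pseudogene sum in SIRT4 libraries and 0.278% in control libraries, and the 16 FTL rows held 0.0579% and 0.0207% in SIRT4 and control libraries. FTH1 also shares 1267 exonic bases with BEST1 on the other strand, a gene at 8.203 ± 1.53 CPM in SIRT4 and 13.4 ± 4.97 CPM in control libraries (SD, n = 3 each). With these rows added to their parent genes, an alternative chosen after the data were seen, both chains were still past the threshold and lower (log2 fold change -0.76 for FTH1 and -0.50 for FTL).

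NCOA4 (ENSG00000266412, GRCh38 chromosome 10, 46005088 to 46030714, minus strand), the receptor that takes ferritin to the lysosome, stood at 142, 145 and 149 CPM in SIRT4 libraries and 120.4, 137 and 143 CPM in control libraries. The groups overlapped, and the control libraries were spread more widely. Its log2 fold change was 0.12 (SE 0.07), not past the threshold.

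HMOX1 (ENSG00000100292, GRCh38 chromosome 22, 35380361 to 35394214, plus strand) had the largest fall of the 10. It stood at 73.4, 79.98 and 76.9 CPM in SIRT4 libraries and 146, 150.4 and 155 CPM in control libraries, with no overlap. In deposited units the values were 4770, 4120 and 4447 in SIRT4 libraries and 8521, 7753 and 8970 in control libraries. The SIRT4 mean was 76.8 ± 3.3 CPM and the control mean 150.3 ± 4.3 CPM (SD, n = 3 each), so SIRT4 libraries held 51.1% of the control level (log2 fold change -0.97, SE 0.05). That log2 fold change was lower than all but 5.14% of tested genes.

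SLC40A1 (ENSG00000138449, GRCh38 chromosome 2, 189560579 to 189583758, minus strand), the exporter, was barely detected. Its deposited units were 22, 25 and 28 in SIRT4 libraries and 17, 40 and 5 in control libraries, or 0.338, 0.485 and 0.485 CPM in SIRT4 and 0.291, 0.776 and 0.0862 CPM in control libraries. The control values alone span the SIRT4 values. No difference was detected at this low level, where the control replicates disagreed (log2 fold change 0.19, SE 0.73). The log2 fold change was 1.20 without control replicate 2 and -0.28, with the sign turned, without control replicate 3.

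The 2 sensor genes differed in size of change. ACO1 (ENSG00000122729, GRCh38 chromosome 9, 32384603 to 32454769, plus strand), whose protein is an aconitase when it holds an iron-sulfur cluster and IRP1 when it does not, stood at 99.2, 105 and 96.7 CPM in SIRT4 libraries and 68.0, 63.0 and 74.0 CPM in control libraries. The groups did not overlap, with a log2 fold change of 0.55 (SE 0.07). IREB2 (ENSG00000136381, GRCh38 chromosome 15, 78437431 to 78501456, plus strand), whose protein IRP2 is degraded when iron is ample, stood at 113, 109.6 and 117 CPM in SIRT4 libraries and 105, 108 and 98.4 CPM in control libraries. All SIRT4 values were above all control values, but the log2 fold change of 0.13 (SE 0.05) was not past the threshold. The difference between the changes of ACO1 and IREB2 was not tested.

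**Figure D2:**
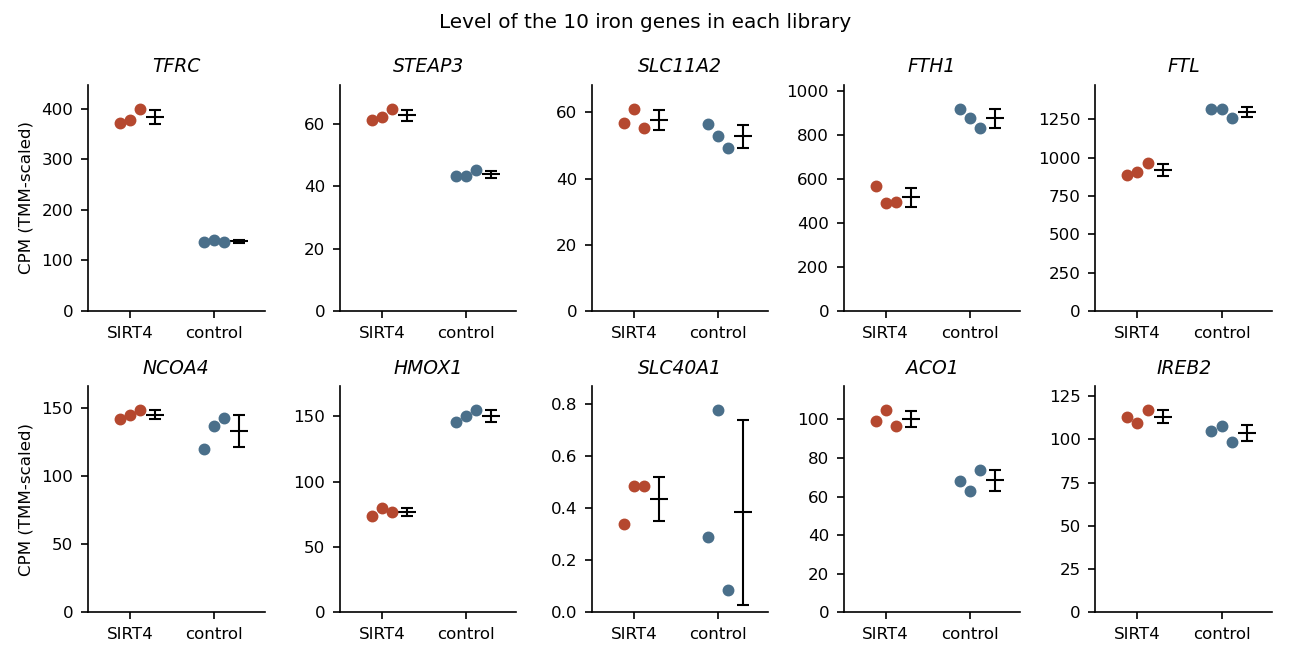
TMM-scaled CPM (vertical axes, each from 0) of the 10 iron genes in the 3 SIRT4 libraries (red) and the 3 control libraries (blue), with bars for mean and SD. TFRC, STEAP3 and ACO1 stand apart upward and FTH1, FTL and HMOX1 downward, IREB2 is separated by a narrow gap, and SLC11A2, NCOA4 and SLC40A1 overlap.

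**Figure D3:**
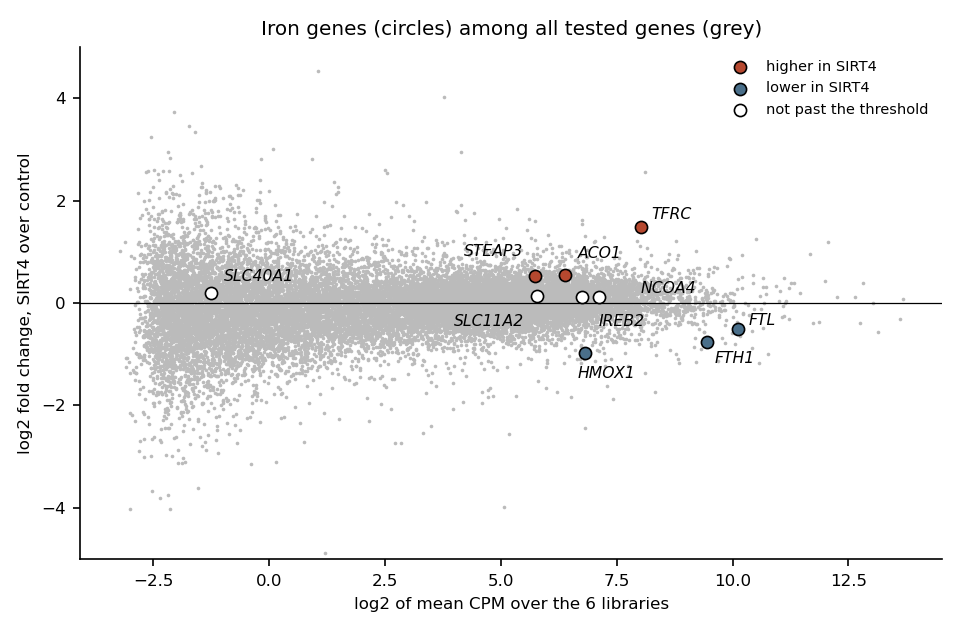
Each grey point is 1 of 20786 tested genes, by log2 of its mean CPM (horizontal) and its log2 fold change, SIRT4 over control (vertical); 20 genes beyond 5 on either side are not drawn. TFRC (1.48) lies above 0 and HMOX1 (-0.97), FTH1 (-0.76) and FTL (-0.50) lie below it, and SLC40A1 lies among the scarce genes. A lower log2 fold change than that of FTH1 was found in 8.32% of tested genes, and than that of FTL in 15.5%.

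Levels of different genes were compared per kilobase of merged exons, as CPM per kilobase. In SIRT4 libraries FTL came first at 1046 ± 46.2, followed by FTH1 at 254 ± 20.9, TFRC at 48.6 ± 1.9, NCOA4 at 35.6 ± 0.76 and HMOX1 at 31.9 ± 1.4 CPM per kilobase (SD, n = 3). In control libraries the order was FTL at 1480.2 ± 38.1, FTH1 at 431 ± 21.9, HMOX1 at 62.5 ± 1.8, NCOA4 at 32.7 ± 2.9 and TFRC at 17.4 ± 0.31 CPM per kilobase (SD, n = 3). TFRC thus held place 3 in SIRT4 and place 5 in control libraries, and HMOX1 place 5 in SIRT4 and place 3 in control libraries. Per kilobase of the longest transcript instead, HMOX1 (42.1) stood just above NCOA4 (40.95) in SIRT4 libraries, in place 4, while the first 5 places in control libraries were as above. Below them, per kilobase of merged exons, came STEAP3, ACO1, IREB2 and SLC11A2 in SIRT4 libraries and STEAP3, IREB2, ACO1 and SLC11A2 in control libraries. SLC40A1 was last, at 0.101 and 0.0888 CPM per kilobase in SIRT4 and control libraries. Neighbours whose libraries overlapped were STEAP3 and ACO1 in SIRT4 libraries, and STEAP3, IREB2 and ACO1 in control libraries.

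Ratios of these levels within a library put TFRC mRNA beside ferritin mRNA. Protein, iron uptake and stored iron were not measured. TFRC over FTH1 per kilobase was 0.169, 0.199 and 0.209 in SIRT4 libraries and 0.0382, 0.0412 and 0.0422 in control libraries. TFRC over FTL was 0.0467, 0.0466 and 0.0462 in SIRT4 libraries and 0.0115, 0.0118 and 0.0120 in control libraries. FTH1 over FTL was 0.276, 0.234 and 0.221 in SIRT4 libraries and 0.301, 0.287 and 0.284 in control libraries. The groups did not overlap in any of these ratios, which restate the changes above as levels relative to each other. The size of the ratios depends on the length used, while whether the groups overlap does not. Per kilobase of the longest transcript, FTH1 averaged 420 in SIRT4 and 711 in control libraries, and TFRC 75.0 in SIRT4 and 26.9 in control libraries. FTL was the same by both lengths. ACO1 over IREB2 was 1.26, 1.37 and 1.18 in SIRT4 libraries and 0.927, 0.837 and 1.08 in control libraries. Which of the 2 genes is higher depends on the length used: per kilobase of the longest transcript, ACO1 averaged 13.4 and IREB2 17.8 in SIRT4 libraries, and ACO1 9.15 and IREB2 16.3 in control libraries.

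**Figure D4:**
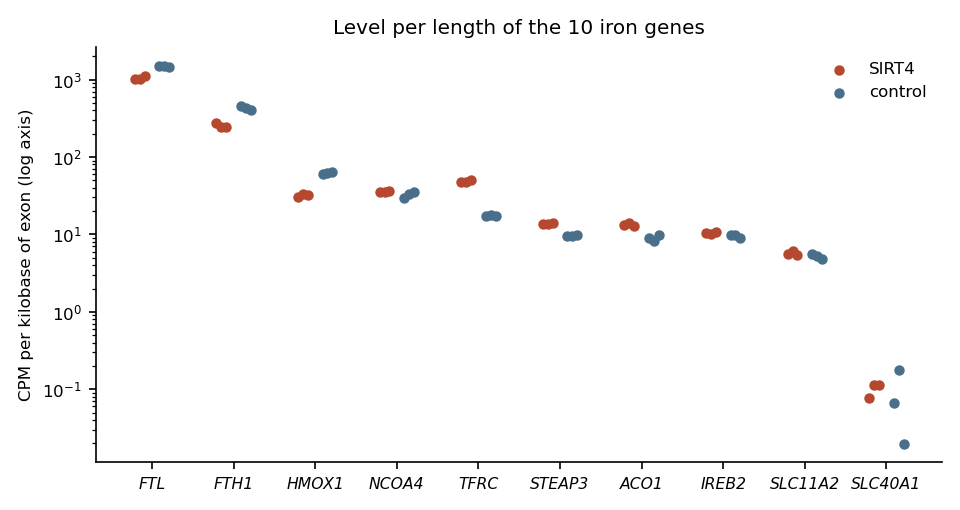
CPM per kilobase of merged exons (log axis) of the 10 iron genes in SIRT4 (red) and control (blue) libraries, 1 point a library, ordered by mean over the 6 libraries. The ferritins lead, TFRC lies above HMOX1 in SIRT4 libraries and below it in control libraries, and SLC40A1 is lowest and most scattered.

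Sequence before the transcription start was examined in the RefSeq promoter table (GRCh38.p14), which held 8 of the 10 genes in 13 windows of 250 bases. FTH1 and HMOX1 had no entry. Both strands were searched for the antioxidant response element core TGACNNNGC, the Maf recognition element, which always contains that core, the E-box CACGTG, the GC box GGGCGG and the TATA box TATAAA. No window held the core, the Maf element or the E-box, against 10.9%, 0.131% and 6.34% of all 35116 windows. With 13 windows, finding none is not informative for motifs this uncommon. Sequence beyond these 250 bases was not searched, so the absence does not show that these genes lack such elements. The GC box was found in 8 of the 13 windows, against 42.6% of all windows. Each of the 8 genes had it at some start, and genes with several windows had more chances of a match. It occurred 6 times before ACO1, 3 times before TFRC, STEAP3 and SLC40A1, and 2 times before FTL. TFRC was the one member with a TATA box, 33 bases before its start, a motif in 10.7% of all windows.

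The rest of iron and heme metabolism was described from 9 lists written with earlier results of these data known. Of 106 listed genes, 98 were tested, of which 19 were higher and 17 lower in SIRT4 libraries. Of all 20786 tested genes, 1950 (9.38%) were higher and 1595 (7.67%) lower. These shares are the background for the count of each list below and are not repeated there. Most listed genes had a mean of at least 5 CPM, against 12032 of all tested genes, so the shares are not alike in power. The count of higher genes was 10 without SIRT4 replicate 2 and 12 without control replicate 1. The median log2 fold change was -0.00491 over these genes and -0.02 over all tested genes.

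Among other genes of iron import, reduction and endosomal release, none of 11 tested was higher and 1 was lower. LCN2, a secreted protein that binds iron-carrying siderophores, stood at 5.09, 5.90 and 5.07 CPM in SIRT4 libraries and 10.7, 10.7 and 10.5 CPM in control libraries (log2 fold change -0.99, SE 0.12, edgeR adjusted p = 0.00136). STEAP1 (-0.30, edgeR adjusted p = 0.0967), transferrin itself, TF (0.96, edgeR adjusted p = 0.113), and the endolysosomal channel gene MCOLN1 (0.23, edgeR adjusted p = 0.137) did not pass. STEAP2, a ferrireductase relative of STEAP3 named after its values were seen, had the largest fold change of the list. It stood at 7.67, 20.6 and 23.5 CPM in SIRT4 libraries and 35.7, 43.4 and 35.1 CPM in control libraries, with SIRT4 replicate 1 apart from the others, and did not pass (-1.14, edgeR adjusted p = 0.156). Without SIRT4 replicate 1, 3 genes of this list were lower, and limma-voom called 2 lower.

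Of 10 tested genes of iron chaperones, sensors and hormones, 3 were higher and 2 lower. BMP6, a ligand known in the liver for raising hepcidin, stood at 59.8, 65.6 and 72.1 CPM in SIRT4 libraries and 149.8, 140.1 and 153 CPM in control libraries (log2 fold change -1.17, SE 0.08, edgeR adjusted p = 6.98e-05). The gene for hepcidin, HAMP, had 4 units in 1 SIRT4 library and 0 in the other SIRT4 and all control libraries. HIF1A, the oxygen-regulated transcription factor subunit, was lower (-0.41, edgeR adjusted p = 0.0023). PCBP4, a relative of the iron chaperone PCBP1, was higher (0.70, edgeR adjusted p = 0.00252), as was HERC2, a ubiquitin ligase (0.43, edgeR adjusted p = 0.00236). FBXL5, the iron-sensing adaptor through which IRP2 is degraded, averaged 34.6 CPM in SIRT4 and 40.2 CPM in control libraries and did not pass (-0.22, edgeR adjusted p = 0.110).

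In export and heme transport, 3 of 7 tested genes were higher and 2 lower. ABCG2, a membrane pump that also carries porphyrins, stood at 70.9, 74.9 and 68.1 CPM in SIRT4 libraries and 31.3, 27.7 and 30.2 CPM in control libraries, with no overlap (log2 fold change 1.26, SE 0.07, edgeR adjusted p = 4.16e-05). The plasma ferroxidase gene CP was higher (0.70, edgeR adjusted p = 0.00718), and so was FLVCR2 (0.71, edgeR adjusted p = 0.0170), a transporter of the same family as the heme exporter FLVCR1. SLC48A1, which moves heme out of endosomes and lysosomes, was lower (-0.56, edgeR adjusted p = 0.0278). FLVCR2 did not pass without SIRT4 replicate 2 or 3 or control replicate 1 or 2 (edgeR adjusted p from 0.0520 to 0.0609). SLC48A1 did not pass without SIRT4 replicate 1 or 3 or control replicate 1 or 2 (edgeR adjusted p from 0.0553 to 0.0951). The count of lower genes in this list was 0 without SIRT4 replicate 3, control replicate 1 or control replicate 2. It was 1 without SIRT4 replicate 1, SIRT4 replicate 2 or control replicate 3, and with the replicate number as a block.

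Of 10 tested genes that act beside or on HMOX1, 5 were lower and 2 higher. BLVRB, a biliverdin reductase, stood at 21.7, 24.6 and 23.7 CPM in SIRT4 libraries and 35.6, 39.9 and 36.6 CPM in control libraries (log2 fold change -0.68, SE 0.08, edgeR adjusted p = 0.00136). NFE2L2, which encodes the transcription factor NRF2, an activator of HMOX1, stood at 83.7, 83.2 and 87.0 CPM in SIRT4 libraries and 109.4, 114 and 106.4 CPM in control libraries (-0.38, edgeR adjusted p = 0.0022). MAFK, a small Maf partner of NRF2 and BACH1, was lower (-0.36, edgeR adjusted p = 0.000588). KEAP1, the adaptor that marks NRF2 for degradation, was higher at 64.9, 62.5 and 77.1 CPM in SIRT4 libraries and 35.1, 28.3 and 44.6 CPM in control libraries (0.92, SE 0.17, edgeR adjusted p = 0.0154), but not without control replicate 1 (edgeR adjusted p = 0.0662). Named after their values were seen, BACH1, a heme-sensing repressor of HMOX1, was lower (-0.41, edgeR adjusted p = 0.0221) and so was the small Maf gene MAFF (-1.81, edgeR adjusted p = 0.0233), while BLVRA, the other biliverdin reductase gene, was higher (0.29, edgeR adjusted p = 0.0307). The count of lower genes here was 3 without SIRT4 replicate 2, control replicate 2 or control replicate 3, where BACH1 and MAFF did not pass. The count of higher genes was 1 without SIRT4 replicate 1, SIRT4 replicate 2 or control replicate 3, and 0 without control replicate 1. It was also 1 with library size only in place of TMM scaling. BLVRA did not pass in any of these fits.

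In heme synthesis, 2 of 13 tested genes were higher, 3 were lower and 8 did not pass. ALAS1, the rate-limiting enzyme, stood at 88.1, 92.2 and 86.6 CPM in SIRT4 libraries and 113, 107.5 and 107 CPM in control libraries (log2 fold change -0.30, SE 0.05, edgeR adjusted p = 0.00669). PPOX, a late enzyme of the pathway, was lower (-0.59, edgeR adjusted p = 0.0102), as was the porphyrin transporter gene ABCB6 (-0.51, edgeR adjusted p = 0.0218). UROD, a middle enzyme, was higher (0.33, edgeR adjusted p = 0.0226). ABCB6 did not pass without SIRT4 replicate 2, SIRT4 replicate 3, control replicate 1 or control replicate 3, and UROD did not pass without SIRT4 replicate 1, 2 or 3 or control replicate 1 or 2. The count of higher genes was 0 without SIRT4 replicate 1, SIRT4 replicate 2, control replicate 1 or control replicate 2, and 1 without SIRT4 replicate 3 or with the replicate number as a block, while DESeq2 called 4.

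In mitochondrial iron import and iron-sulfur cluster assembly, none of 19 tested genes was higher and 2 were lower. ISCU, the scaffold on which clusters are built, stood at 57.1, 55.2 and 47.3 CPM in SIRT4 libraries and 91.2, 99.0 and 89.9 CPM in control libraries, with no overlap (log2 fold change -0.81, SE 0.08, edgeR adjusted p = 0.000577). The iron importer gene SLC25A37 (mitoferrin 1) was lower (-0.56, SE 0.09, edgeR adjusted p = 0.0046). FDXR, which supplies electrons to assembly, did not pass (-0.21, edgeR adjusted p = 0.109). In cytosolic assembly 2 of 9 genes were higher and 1 lower: NUBP2 was lower (-0.56, edgeR adjusted p = 0.00987), while its scaffold partner NUBP1 (0.42, edgeR adjusted p = 0.0361) and CIAO2A (0.34, edgeR adjusted p = 0.0207) were higher. CIAO2A did not pass without SIRT4 replicate 2 or any 1 control library, and NUBP1 passed with a library left out only where that was SIRT4 replicate 3. The count of higher genes there was 1 without SIRT4 replicate 1 and 0 without SIRT4 replicate 2, control replicate 1, control replicate 2 or control replicate 3. It was also 1 with the replicate number as a block, and with library size only in place of TMM scaling (NUBP1, edgeR adjusted p = 0.0543). CIAO2B did not pass (-0.19, edgeR adjusted p = 0.275).

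Among enzymes of iron or iron-sulfur chemistry, 7 of 13 tested were higher and 1 lower. RRM1, the large subunit of ribonucleotide reductase, stood at 124, 148 and 154 CPM in SIRT4 libraries and 84.6, 90.9 and 89.4 CPM in control libraries (log2 fold change 0.69, SE 0.08, edgeR adjusted p = 0.00124). The iron-carrying small subunit RRM2 went the other way, at 129, 123 and 125 CPM in SIRT4 libraries and 186, 193 and 192 CPM in control libraries (-0.60, SE 0.04, edgeR adjusted p = 0.000126). PRIM2, a primase subunit with an iron-sulfur cluster, was higher (0.56, edgeR adjusted p = 0.00272). Several of these genes also belong to DNA replication, and RRM1 itself carries no iron.

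None of 6 RNA-binding protein genes linked to decay of TFRC mRNA or of other stem-loop or AU-rich mRNAs passed the threshold in edgeR, DESeq2 or limma-voom, and 0 had an unadjusted edgeR p under 0.05. Regnase-1, ZC3H12A, averaged 19.0 ± 1.2 CPM in SIRT4 and 20.4 ± 1.9 CPM in control libraries (SD, n = 3 each; log2 fold change -0.10, edgeR adjusted p = 0.568), and the Roquin gene RC3H1 averaged 33.1 ± 0.49 and 31.5 ± 2.9 CPM in SIRT4 and control libraries (0.07, edgeR adjusted p = 0.636). ZFP36 (-0.17, edgeR adjusted p = 0.306) and ZFP36L2 (0.16, edgeR adjusted p = 0.214) overlapped between the groups as well.

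**Figure D5:**
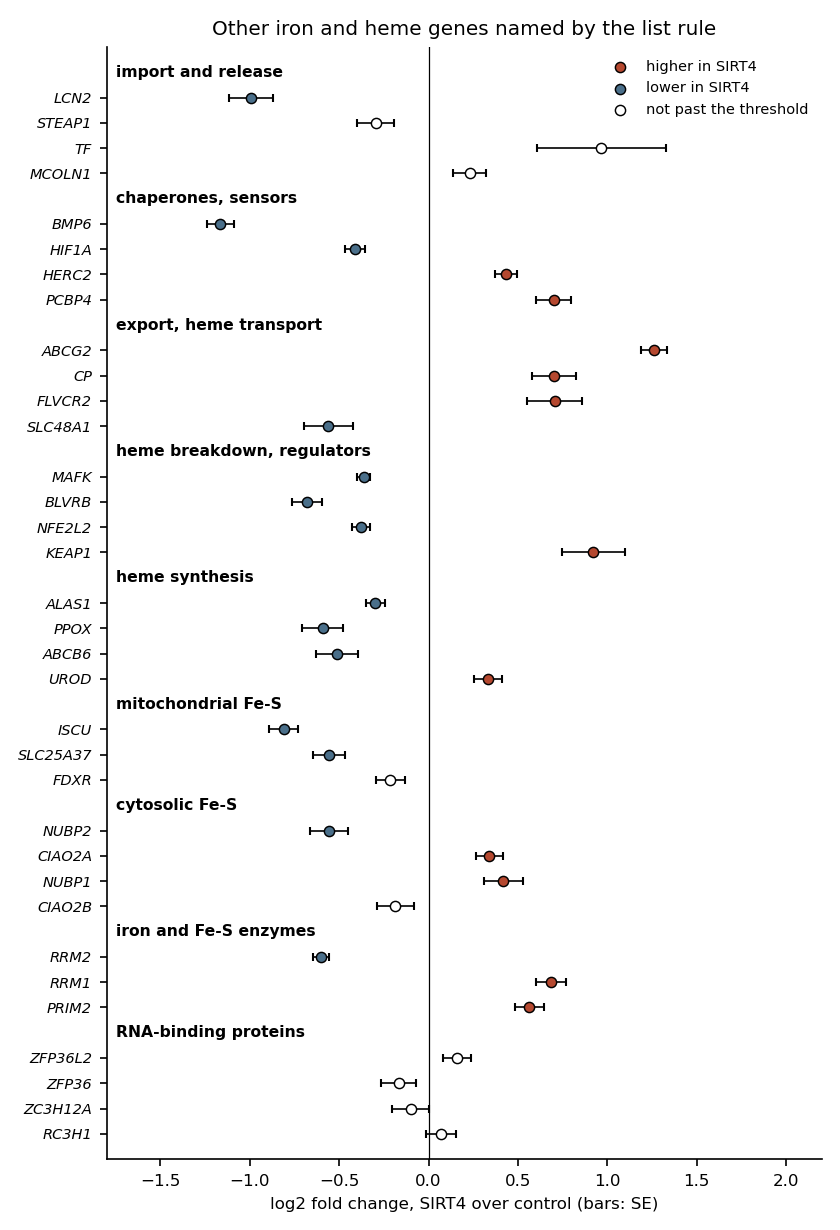
Log2 fold change, SIRT4 over control, with SE, of genes of each list with the lowest adjusted p; red passed and was higher, blue passed and was lower, and white did not pass. ABCG2 (1.26) and KEAP1 (0.92) lie farthest to the right among the plotted genes that passed, and BMP6 (-1.17) and LCN2 (-0.99) farthest to the left.

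Patterns over the 6 libraries were compared across 12032 tested genes with a mean of at least 5 CPM. Closest to TFRC were PPIA, a cyclophilin (Pearson r = 0.9998), the read-through gene BLOC1S5-TXNDC5 (0.9997) and the chaperone gene DNAJA1 (0.9996). BLOC1S5-TXNDC5 was listed at 184, 173 and 254 CPM in SIRT4 libraries and at 0 in all control libraries. Whether this reflects how reads of overlapping genes were assigned was not tested. Closest to HMOX1 were ARHGAP32 (0.9993), NT5E (0.9993) and EGR1 (0.9986). These values describe likeness over 6 libraries that fall into 2 groups, and any gene with a large difference and tight replicates scores high.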

How the data were processed

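RNA-seq of 6 CAPAN-2 libraries was analysed. The deposited table holds whole numbers per Ensembl gene, treated as estimated counts because low values do not fall steadily from 1. Rounding changed nothing. The submitters' processing notes name STAR, featureCounts, Subread, DESeq2 and hg38. No source used here gives their settings, the annotation release or the strand setting, so reads of overlapping genes cannot be told apart. Symbols matched 60357 of 67140 identifiers, and GENCODE 29 named 296 more.

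All 20786 genes passing filterByExpr were fitted with edgeR 4.0.16 under R 4.3.3 (TMM scaling, glmQLFit with robust estimation, glmQLFTest, Benjamini-Hochberg adjustment over all genes, threshold 0.05, two-sided), and the procedure was tested on simulated data. SE is the absolute log2 fold change over the square root of F. Alternatives are given in the closing section. The members and lists were chosen with earlier results of these data known. Named genes were the 10 members, SIRT4, up to 4 genes per list with the smallest adjusted p, and the 3 genes most like TFRC and HMOX1. BACH1, MAFF, BLVRA, STEAP2, FBXL5, HAMP and marker genes were named besides, after their values were seen. Some listed genes are counted but not reported here by name. Motif and level comparisons are descriptions.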

Additional observations from a re-analysis of the deposited data

How the results depend on the processing

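Fits were repeated with DESeq2 size factors, library size only, no filter, a mean of 1 CPM with at least 10 units in 3 libraries (the stricter filter), limma-voom (limma 3.58.1), DESeq2 1.42.0, the replicate number as a block, values divided by 4, the SIRT4 row removed, and each library left out. The 6 members past the threshold (TFRC, ACO1, STEAP3, HMOX1, FTH1 and FTL) stayed past it in the same direction under all of these, with log2 fold changes of 1.45 to 1.51 for TFRC and -0.83 to -0.72 for FTH1. Over all tested genes, same-numbered SIRT4 and control libraries did not deviate together from their group means (correlations of -0.00931 to 0.0187). Different-numbered libraries gave -0.03865 to 0.02568. A link that moves only some genes would not be seen this way, so pairing by number was not excluded. With the replicate block, 3 members were higher and 3 lower, and the listed genes had 16 higher and 15 lower; SLC48A1 (edgeR adjusted p = 0.0513) and NUBP1 (edgeR adjusted p = 0.0933) no longer passed. Over all genes, lower calls numbered 978 to 1204 with a library left out, against 1595. Higher calls in the iron and heme lists numbered 10 to 16 with a library left out, against 19. SLC40A1 turned to -0.28 without control replicate 3 and was 1.20 without control replicate 2; it was not tested under the stricter filter or with values divided by 4. SIRT4 passed in DESeq2 (log2 fold change 0.64, adjusted p = 0.0384), and its log2 fold change was 0.55 to 0.77 with a library left out. Per kilobase of the longest transcript in place of merged exons, 4 of 10 members kept their place in the order of means over all libraries, and with Watson-Crick pairs only, 2 members kept a hairpin. The causes were not tested. Of the 36 list genes chosen by the naming rule, 29 stayed on 1 side of the threshold throughout. BACH1, MAFF and BLVRA are not in that count, and each did not pass in some of the fits with a library left out. Low counts and the spread between control replicates limit SLC40A1, at 5 to 40 units a library.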
